A study of Bos taurus with 138 samples.

Results

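Transcripts of 10 genes typical of fibroblasts and other mesenchymal cells were followed across 6 stages of early bovine development, from the oocyte to the blastocyst. The genes were COL1A1, COL1A2, COL3A1, SPARC, TAGLN, SERPINH1, ACTA2, VIM, FN1 and PLAT, of 16706 gene symbols in the count table. They were chosen on measured values, namely their high levels in the polysome pools and transcriptomes of 8-cell embryos. Every difference between the 8-cell stage and another stage in those libraries is therefore a description, without a test. The series holds Bos taurus oocytes before maturation (germinal vesicle, GV) and after it (metaphase II, MII), and embryos at the 2-cell, 8-cell, morula and blastocyst stages, all made by maturation and fertilisation in vitro from slaughterhouse ovaries, with no treatment, genotype or strain contrast. At each stage, 2 sucrose gradients, called A and B and given as biological duplicates, were cut into 10 fractions (F1 to F10), and 3 whole transcriptomes (A, B and C) were sequenced from the same batches. The study's methods assign F1 and F2 to free RNA, F3 to F5 to monosomes and F8 to F10 to polysomes. Here the counts of those fractions were summed for each gradient, and F6 and F7 were summed as an intermediate pool. According to the same methods, cumulus cells were removed at the collection of MII oocytes. For embryos, which came from cumulus-oocyte complexes incubated with sperm, the methods name a wash but no separate removal of cumulus cells. The zona pellucida of oocytes and embryos was removed, and samples were washed and found to carry no contaminating cells before they were frozen. Cycloheximide was added to the culture before oocytes and embryos were collected, to halt ribosomes on transcripts. The lysis buffer and gradients held it too.

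Fibrillar collagens I and III are triple helices that give connective tissue its tensile strength. Their chains enter the endoplasmic reticulum, where the chaperone HSP47, encoded by SERPINH1, binds the folded helix before secretion, and SPARC and fibronectin (FN1) bind collagen outside the cell. Transgelin (TAGLN), smooth muscle actin (ACTA2) and vimentin (VIM) belong to the cytoskeleton of mesenchymal and smooth muscle cells, and tissue plasminogen activator (PLAT) is a secreted protease that turns plasminogen into plasmin. Bovine embryos start large-scale transcription of their own genome around the 8-cell stage. Cumulus cells, which surround the oocyte, and fibroblasts of the ovary also express many of these genes.

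Levels are counts per 1000000 counts of a library (CPM), scaled by trimmed mean of M values (TMM) factors. Whole transcriptomes held between 3269385 and 11812541 counts and polysome pools between 22543733 and 39380640, so that 3 counts, the floor used for a value of 0, corresponded to 0.0757 to 0.882 CPM. A level is a share of a library, and with bulk RNA a smaller number of cells of a type and less RNA per cell cannot be told apart. Transcriptome A of the 8-cell stage stood apart for the members. Its level was the highest of the 3 replicates for 10 of 10 members, at 3.55 to 14.5 times the mean of B and C (median 4.77). Of the 11467 genes at a mean of at least 1 CPM in these libraries, 42.5% were highest in A. A ratio of 2 or more was found for 16.4% of them, and the median ratio was 1.02. The members were chosen on high levels in these same libraries, which favours genes high in A. These shares are therefore no test of the members. The means and SDs below are therefore accompanied by the values of each replicate.

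COL1A1 and COL3A1 were near 0 in transcriptomes and polysomes before the 8-cell stage, and COL1A2 was low. COL1A1, the alpha-1 chain of collagen I, was at 30.2, 6.63 and 8.78 CPM in 8-cell transcriptomes A, B and C, and at 29.8 and 3.63 CPM in polysome pools A and B. In the 2-cell transcriptomes it lay between 0 and 0.0761 CPM, and in the morula transcriptomes between 0.646 and 1.16 CPM, so that no 8-cell transcriptome overlapped with either stage. In morula polysomes COL1A1 was at 0 in both pools, and the 8-cell mean of 16.7 ± 18.5 CPM (SD, n = 2) was at least 145-fold higher than the mean floor of 3 counts per library. COL1A2, the alpha-2 chain, was at 190, 14.1 and 20.6 CPM in the 8-cell transcriptomes and at 39.9 and 66.4 CPM in the polysome pools. It was the only collagen chain of the 3 with counts in every oocyte transcriptome, at 1.42 to 2.77 CPM in GV oocytes and 2.26 to 3.43 CPM in MII oocytes, and its polysome pools ranged from 0.432 to 14.98 CPM over these 2 stages and the 2-cell stage. Without replicate A, the mean of the 8-cell transcriptomes for COL1A2 was 9.13 times the 2-cell mean, against 39.4 times with it. COL3A1, the chain of collagen III, was at 0 in all transcriptomes and polysome pools of GV oocytes, MII oocytes and 2-cell embryos. At the 8-cell stage it was at 138, 15.8 and 19.5 CPM in the transcriptomes, but at 0.0820 and 29.9 CPM in the polysome pools. Gradient B alone carried COL3A1 in its polysomes, and morula pool B held 21.1 CPM against 0 in pool A, so that the polysome values of the 2 stages overlapped.

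At the 8-cell stage SERPINH1, the collagen chaperone, was the one member with far more polysomal than total signal. Its 8-cell transcriptomes held 44.4, 8.60 and 13.8 CPM, whereas polysome pools A and B held 233 and 699.5 CPM, both above every transcriptome. In 2-cell embryos it lay between 0 and 0.150 CPM in the transcriptomes and at 1.95 and 0.123 CPM in the polysomes. The 8-cell contrast was part of what chose the gene, but the same contrast at the other stages was not. SERPINH1 was higher in polysomes than in the transcriptome at all 5 of these stages by edgeR's quasi-likelihood test, with log2 differences of 8.27 in GV oocytes (adjusted p = 0.00204), 4.56 in MII oocytes (adjusted p = 7.78e-04), 3.64 in 2-cell embryos (adjusted p = 0.0273), 4.30 in morulae (adjusted p = 0.00101) and 3.38 in blastocysts (adjusted p = 0.00839). The GV value is not a bound on the fold, since all 3 GV transcriptomes were at 0 and the pools held 1.41 and 2.86 CPM. The calls in GV, MII, morula and blastocyst samples were kept when each of the 5 libraries was left out in turn. The 2-cell call was lost without pool A (log2 difference of 0.62, adjusted p = 0.825) and without transcriptome A or B (adjusted p of 0.0926 and 0.0679). In blastocysts the pools held 39.0 and 47.9 CPM and the transcriptomes 9.99, 0.622 and 2.40 CPM, with no overlap.

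SPARC, a matricellular protein that binds collagen, was at 4066, 909 and 860.5 CPM in the 8-cell transcriptomes and at 964.5 and 1038 CPM in the polysome pools. The polysome pools differed far less between replicates than the transcriptomes did. At the 2-cell stage SPARC was between 0.959 and 1.81 CPM in transcriptomes and at 6.17 and 0.615 CPM in polysomes. Unlike the collagen chains it remained abundant later, at 397, 362 and 305 CPM in morula transcriptomes and 323, 382 and 343 CPM in blastocyst transcriptomes. Its change from morula to blastocyst did not pass the test in transcriptomes (log2 change of -0.02, SE 0.64) or polysomes (log2 change of -0.67, SE 0.79). The mean of 8-cell transcriptomes B and C alone was 2.5 times the morula mean, against 5.49 times with replicate A.

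FN1, the fibronectin gene, went the other way after the 8-cell stage. It was already at 8.10 to 9.57 CPM in GV, 13.7 to 17 CPM in MII and 10.2 to 15.3 CPM in 2-cell transcriptomes. The 8-cell transcriptomes held 160, 33.8 and 56.4 CPM, but its 8-cell polysome pools held 0 and 8.24 CPM, on either side of the 2-cell pools of 5.70 and 6.74 CPM. Morula transcriptomes held 1011, 1513 and 677.5 CPM and blastocyst transcriptomes 3379, 4299 and 4366 CPM, all above every 8-cell library. The morula to blastocyst increase in transcriptomes was 1.91 on the log2 scale (SE 0.71) and missed the threshold (adjusted p = 0.0534 by edgeR). In blastocysts FN1 was lower in polysomes, at 430 and 504 CPM, than in the transcriptome (log2 difference of -3.10, SE 0.88, edgeR adjusted p = 0.00695). Without pool A or B that call was lost, at an adjusted p of 0.0616 and 0.05004.

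The cytoskeletal genes differed in what they showed before the 8-cell stage. TAGLN, an actin-binding protein of smooth muscle, was at 366, 87.0 and 54.2 CPM in the 8-cell transcriptomes and at 108 and 247 CPM in the polysome pools. No other transcriptome exceeded 1.79 CPM and no other polysome pool 6.70 CPM. ACTA2 was present at every stage, with transcriptomes between 10.0 and 13.7 CPM in GV oocytes and between 7.35 and 16.1 CPM in 2-cell embryos. Its 8-cell transcriptomes were at 405, 15.9 and 40.1 CPM, and replicate B lay inside the 2-cell range. Without replicate A the 8-cell mean of ACTA2 was 2.54 times the 2-cell mean, against 13.9 times with it, while the polysome pools of 45.5 and 70.9 CPM stood above the 2-cell pools of 14.4 and 13.9 CPM. VIM, an intermediate filament protein, was at 789, 138 and 181 CPM in the 8-cell transcriptomes and at 70.8 and 37.1 CPM in the polysomes, after at most 0.152 CPM in any 2-cell library of either kind.

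PLAT was at 993, 246 and 208.5 CPM in the 8-cell transcriptomes and at 316 and 526 CPM in the polysome pools. It was at 0 in all 3 morula transcriptomes, and the 8-cell mean was at least 1661-fold higher than the mean floor of 3 counts per library, or at least 782-fold without replicate A. Morula gradients did hold PLAT, at 0 and 16.3 CPM in the polysome pools and at 0.990 and 74.3 CPM in the free RNA pools. In 8-cell free RNA it was at most 0.874 CPM, and this difference was not called (edgeR adjusted p = 0.06). Before the 8-cell stage PLAT was in polysomes, at 31.0 and 12.5 CPM in 2-cell pools, with a log2 difference from the 2-cell transcriptome of 3.32 (SE 1.06, edgeR adjusted p = 0.0125). That call was lost without pool A (adjusted p = 0.104) and without transcriptome A (adjusted p = 0.0539).

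**Figure D1:**
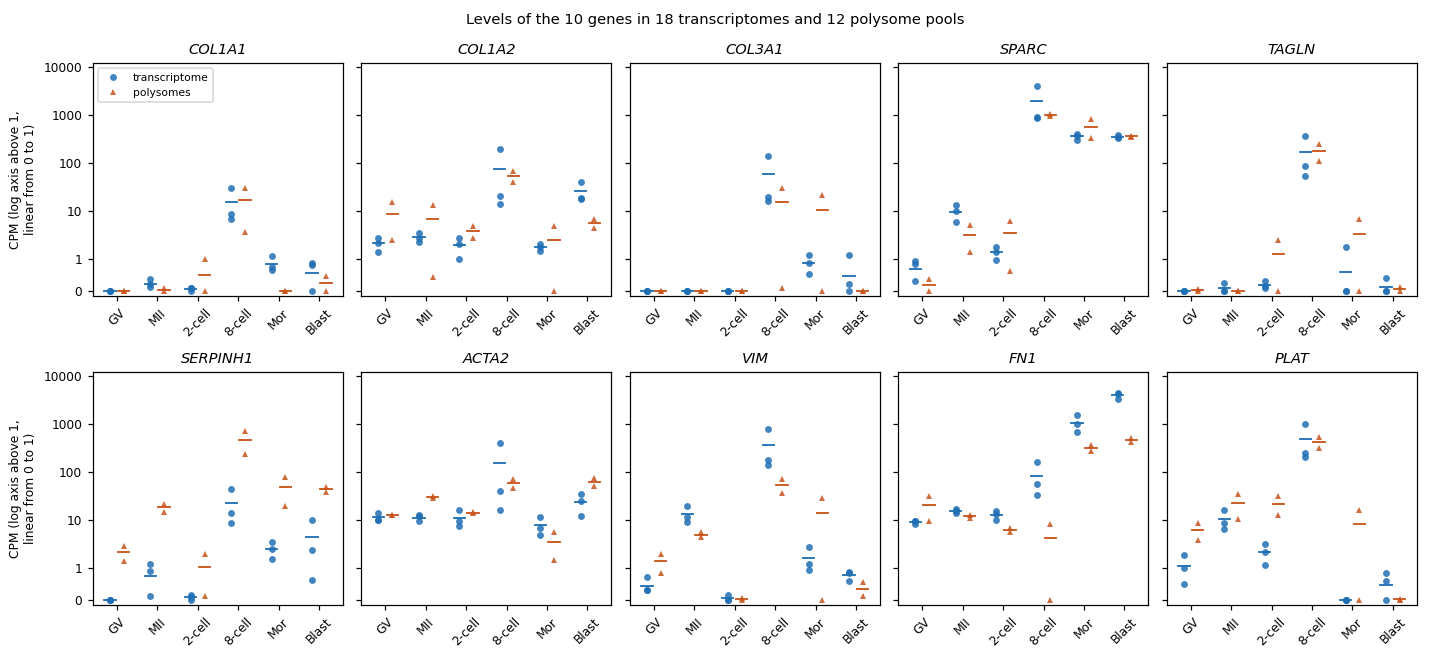
Levels of the 10 genes in CPM (log axis above 1, linear from 0 to 1) at the 6 stages, with 1 point per library, 18 transcriptomes as circles and 12 polysome pools as triangles, and a bar at each group's mean. In 9 of 10 panels the 8-cell transcriptomes lie above all 2-cell transcriptomes, the exception being ACTA2, and FN1 alone is higher in morulae than in 8-cell embryos in both kinds of library.

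Across the 10 members, 9 had 8-cell transcriptomes wholly above those of the 2-cell stage, and 9 had 8-cell polysome pools wholly above. The exceptions were ACTA2 in transcriptomes and FN1 in polysomes. COL3A1 is among the 9 in polysomes with only 2 counts in pool A, under the floor of 3, and cannot be told from 0 there. Of all genes reaching 1 CPM in these libraries, 39.2% and 25.9% did so. Against the morula, 9 members were wholly above in transcriptomes and 8 in polysomes, where COL3A1 overlapped, and FN1 was wholly below in both, beside 26.7% and 22.9% of all genes wholly above. The median over members of the log2 difference in mean level, with 1 CPM added, was 5.29 from 2-cell to 8-cell embryos in transcriptomes, or 3.86 without transcriptome A, and 4.11 in polysomes. These values chose the members and carry no evidence of their own.

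The ratios between members within an 8-cell library were compared across replicates. PLAT was 24.4%, 27.1% and 24.2% of SPARC in transcriptomes A, B and C, and VIM was 19.4%, 15.2% and 21.0%, so that these ratios stayed close while the levels differed several-fold. COL1A2 was less even, at 4.67%, 1.55% and 2.40% of SPARC, and ACTA2 at 9.95%, 1.75% and 4.66%. In polysome pools A and B, SERPINH1 was at 24.2% and 67.4% of SPARC and VIM at 7.34% and 3.58%, both further apart than in the transcriptomes, whereas COL1A2 at 4.14% and 6.40% and ACTA2 at 4.71% and 6.83% were closer. PLAT, at 32.7% and 50.65% of SPARC in the pools, was also further apart there than in the transcriptomes. So was TAGLN, at 11.2% and 23.8% in the pools and 9.01%, 9.57% and 6.30% in the transcriptomes. The pools were furthest apart for COL1A1 at 3.09% and 0.350%, COL3A1 at 0.0085% and 2.88%, and FN1 at 0% and 0.794%. In the transcriptomes COL1A1 was at 0.742%, 0.729% and 1.02%. All of these are ratios of CPM, not corrected for gene length.

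Along the 8-cell gradients the members fell into dense and sparse profiles. SPARC had counts in 20 of 20 fraction libraries and was at 1910 CPM in F10 of gradient A and 1055 CPM in F9 of gradient B, against 7.93 and 0.251 CPM in F1. PLAT reached 644 and 1117 CPM in F10 of the 2 gradients. SERPINH1 peaked in F9 at 504 and 803 CPM, but F10 differed between gradients, at 0.118 CPM in A and 710.5 CPM in B. TAGLN was also densest towards the bottom, with counts in 6 of 6 polysome fractions. Spearman's rho of level with fraction number over the 20 libraries was 0.851 for SPARC, 0.812 for PLAT, 0.741 for TAGLN and 0.703 for SERPINH1, which describes 2 gradients whose neighbouring fractions share a lysate.

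COL1A2 and COL3A1 came from very few fractions. COL3A1 had counts in 6 of 20 libraries and exceeded 1 CPM in only 2 of them, F7 of gradient A at 224 CPM and F10 of gradient B at 86.0 CPM. COL1A2 had counts in 7 of 20, with 115 and 138 CPM in F10 and 0 in F8 of both gradients. FN1 and ACTA2 showed no trend along the gradient, with rho of -0.0516 and 0.0453. Polysome counts of COL3A1 and FN1 came almost wholly from F10 of gradient B, and those of COL1A2 from F10 in gradient A and from F9 and F10 in gradient B, so that these pool values are no more precise than the single fractions.

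**Figure D2:**
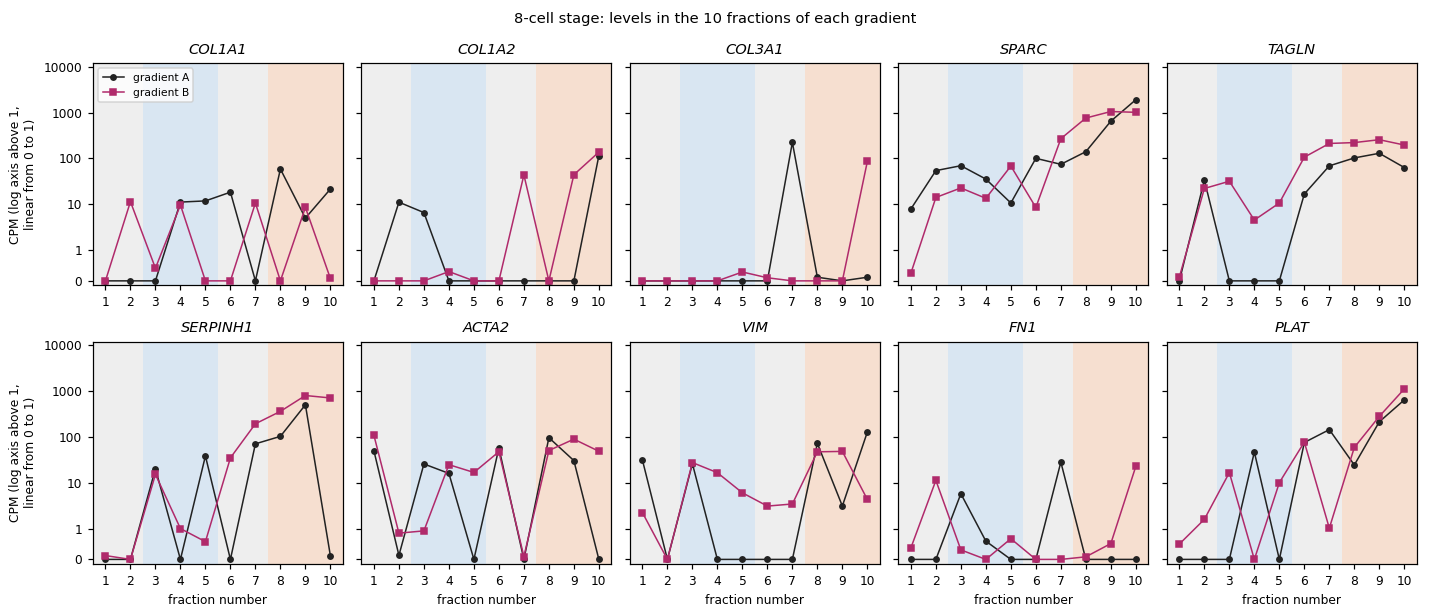
Level of each gene in CPM (log axis above 1, linear from 0 to 1) in the 10 fractions of the 2 gradients of 8-cell embryos, with shading for free RNA (F1 and F2), monosomes (F3 to F5, blue), the intermediate pool (F6 and F7) and polysomes (F8 to F10, orange). SPARC, SERPINH1, TAGLN and PLAT are highest in the polysome range in both gradients, whereas COL1A2 and COL3A1 have counts in few fractions.

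Monosomes and free RNA were not used to choose the genes, although they come from the same gradients as the polysome pools. There, edgeR's quasi-likelihood test with an adjusted p under 0.05 and a fold above 2 was applied to 14504 genes, including 9 members, since COL3A1 was filtered out at low counts. SPARC was the only member higher in monosomes of 8-cell than of 2-cell embryos, at 40.1 and 30.01 CPM against 1.15 and 0.724 CPM (log2 difference of 5.22, SE 0.95, adjusted p = 0.00244). All genes passed this test at 3.83% higher and 1.75% lower, and 0 members were lower. Without 2-cell pool A or B the adjusted p for SPARC was 0.0519 and 0.0710. In free RNA, SPARC was likewise the only one, at 30.3 and 6.16 CPM against 0.186 and 0.439 CPM (log2 difference of 5.82, SE 0.99, adjusted p = 0.00155), beside 4.1% of all genes higher and 3.9% lower. This call held when each of the 4 pools was left out. Against the morula, 1 of 9 members was higher in 8-cell monosomes and 1 lower, beside 4.09% and 6.63% of all genes. The first was PLAT, at 11.1 and 7.54 CPM against 0 in both morula pools, which is at least 57.2-fold higher than the mean floor (edgeR adjusted p = 0.0247). This call was lost without any 1 of the 4 pools, at adjusted p-values of 0.0577 to 0.128. The second was FN1, at 2.57 and 0.283 CPM against 366 and 93.9 CPM (log2 difference of -7.33, SE 1.48, adjusted p = 0.00564), and it was lost without 8-cell pool B (adjusted p = 0.0628). In free RNA 0 members were higher and 3 lower than in morulae, beside 3.04% and 6.99% of all genes. These were SPARC (log2 difference of -3.58, SE 0.87), SERPINH1 (log2 difference of -8.56, SE 2.17) and FN1 (log2 difference of -7.17, SE 1.47). FN1, at 0 and 5.01 CPM in 8-cell pools A and B and 544.5 and 191 CPM in morula pools, kept its call with each pool left out, but the log2 difference was -16.00 without 8-cell pool B and its size rests on that pool. SPARC lost it without 8-cell pool B or morula pool A (adjusted p of 0.0973 and 0.120), and SERPINH1 lost it without 8-cell pool A or B or morula pool B (adjusted p of 0.0540 to 0.0955). Within 8-cell gradients no member differed between free RNA and monosomes at an adjusted p under 0.05, beside 0.848% of all genes. SERPINH1 and PLAT were at an unadjusted p under 0.05 there, and SERPINH1 had 17.8 and 4.63 CPM in monosomes against 0 and 0.0460 CPM in free RNA (adjusted p = 0.0673).

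The stages before the 8-cell embryo held a smaller set of the same transcripts. From GV to MII, 4 of 10 members rose in transcriptomes, where 17.1% of all 14612 genes tested changed in either direction. SPARC went from 0.835, 0.923 and 0.304 CPM to 5.84, 13.3 and 9.87 CPM (log2 change of 3.79, SE 0.83, edgeR adjusted p = 0.00183). VIM went from 0.304, 0.718 and 0.304 CPM to 8.93, 19.4 and 11.4 CPM (log2 change of 4.91, SE 1.19, adjusted p = 0.00450), and PLAT from 1.82, 0.513 and 1.01 CPM to 6.41, 16.2 and 8.80 CPM (log2 change of 3.19, SE 1.06, adjusted p = 0.0372). The fourth was SERPINH1, from 0 in all 3 GV transcriptomes to between 0.119 and 1.22 CPM (adjusted p = 0.0356). For SPARC, VIM and PLAT the groups did not overlap and MII replicate B was the highest. SPARC and VIM kept their calls with each of the 6 libraries left out. PLAT lost its call without GV A, B or C or MII B or C (adjusted p of 0.0635 to 0.137), and SERPINH1 without GV A, B or C or MII A or B (adjusted p of 0.0703 to 0.109). In polysomes SPARC was the 1 member that rose, from 0.378 and 0 CPM to 5.04 and 1.36 CPM (log2 change of 4, SE 1.01, adjusted p = 0.0197), beside 5.37% of all genes that changed. Without GV pool B or MII pool A its adjusted p was 0.180 and 0.195.

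From MII to the 2-cell stage, SPARC and VIM fell in transcriptomes, beside 12% of all genes that changed. SPARC fell by 2.80 on the log2 scale (SE 0.76, edgeR adjusted p = 0.0138), and VIM reached 0.152 CPM in 1 library and 0 in the other two (log2 change of -7.83, SE 1.51, adjusted p = 8.40e-04). The call of SPARC was lost without MII B or 2-cell A or B (adjusted p of 0.0506 to 0.0672), and that of VIM was kept throughout, at log2 changes of -10.92 to -7.29. In polysomes SERPINH1 and VIM fell, beside 8.51% of all genes that changed. SERPINH1 went from 14.6 and 21.7 CPM to 1.95 and 0.123 CPM (log2 change of -4.12, SE 1.14, adjusted p = 0.0261), and VIM from 4.32 and 5.47 CPM to 0.0556 and 0 CPM (adjusted p = 0.0106). SERPINH1 lost its call without MII pool B or 2-cell pool B (adjusted p of 0.0949 and 0.194), and VIM without 2-cell pool A or B (adjusted p of 0.0699 and 0.116). In MII transcriptomes and polysome pools no member exceeded 35.1 CPM, and in 8-cell embryos PLAT, SPARC, TAGLN and VIM were above that level in all 5 libraries.

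From morula to blastocyst, 1 member passed the test in transcriptomes and 3 in polysomes. COL1A2 rose in transcriptomes from 2.05, 1.43 and 1.72 CPM to 18.8, 39.4 and 18 CPM (log2 change of 3.87, SE 1.19, edgeR adjusted p = 0.0201). It was the 1 member called, beside 21.6% of all genes, and the call was lost without morula A, B or C or blastocyst B (adjusted p of 0.0591 to 0.0753). In polysomes ACTA2 rose from 1.49 and 5.55 CPM to 76.0 and 50.2 CPM (log2 change of 4.15, SE 0.98, adjusted p = 0.00693), and VIM and PLAT fell, beside 13.9% of all genes that changed. The fall of VIM and PLAT rests on morula pool B, at 28.4 and 16.3 CPM, since pool A was at 0 for both genes. Without pool B the log2 change was 5.63 for VIM and 2.02 for PLAT, neither past the threshold. The call of VIM was also lost without blastocyst pool A or B (adjusted p of 0.111 and 0.0618), and that of PLAT without blastocyst pool B (adjusted p = 0.0720). That signal of VIM came from F10 of gradient B, at 70.3 CPM, and that of PLAT mostly from F9 of the same gradient, at 32 CPM.

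Polysomes and transcriptomes were also compared within each stage other than the 8-cell stage, at an adjusted p under 0.05 by edgeR. In GV oocytes 1 of 10 members, SERPINH1, passed, beside 39.8% of all genes, and in MII oocytes again 1, beside 57.5%. In 2-cell embryos SERPINH1 and PLAT passed, beside 51.0%. In morulae 4 passed, beside 51.7%: SERPINH1, VIM and PLAT were higher in polysomes and COL1A1 was lower, at 0 in both pools. Without morula pool B the difference of VIM turned to -7.84 on the log2 scale (adjusted p = 0.00378) and PLAT was at 0 in all libraries left. VIM also lost its call without transcriptome A or C (adjusted p of 0.0704 and 0.0663), and COL1A1 lost its call without pool A or B (adjusted p of 0.0575 and 0.0813). In blastocysts SERPINH1 and FN1 passed, beside 40.1%. COL1A1 in GV oocytes and COL3A1 in GV oocytes, MII oocytes and 2-cell embryos were at 0 in both kinds of library and could not be called there, so the counts of members are not read against these shares.

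As a sum, fibroblast markers were higher in 8-cell transcriptomes than at other stages, largely through LUM and POSTN. Of 10 fibroblast markers that are not members, 8 were at a mean of 1 CPM or more in 8-cell transcriptomes, and their summed level was 1593 to 10530 CPM. The sum was 5.23 to 7.70 CPM in GV, 72.8 to 140 CPM in MII, 4.96 to 7.27 CPM in 2-cell, 148 to 165 CPM in morula and 169 to 306.5 CPM in blastocyst transcriptomes. In 8-cell polysome pools it was 207 and 355 CPM. LUM, the collagen-binding proteoglycan lumican, was at 8104, 1690 and 1081 CPM in transcriptomes A, B and C, and POSTN, the matrix protein periostin, at 1959, 125 and 297 CPM. In 2-cell transcriptomes LUM was at most 1.13 CPM and POSTN at most 0.228 CPM, and in morula transcriptomes at most 9.92 and 0.653 CPM. PDGFRB and FAP, surface proteins of fibroblasts, were at means of 0.721 and 0.231 CPM in 8-cell transcriptomes and at 0 in both polysome pools. DPT was even over transcriptomes A, B and C, at 29.3, 27.0 and 30.4 CPM, and had higher means later. These were 34.0 CPM in morulae and 114 CPM in blastocysts. MFAP5 was at a mean of 2.76 CPM in 8-cell and 7.17 CPM in blastocyst transcriptomes. Of the 8 fibroblast markers detected, 7 were highest in transcriptome A, beside 42.5% of all genes, with a median ratio to B and C of 4.27. The part of such cells in the members' levels was not tested.

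Of 16 markers of cumulus and granulosa cells, 13 were at 1 CPM or more in 8-cell transcriptomes, with a summed level of 289 to 1316 CPM. The sum was 93.7 to 126 CPM in GV, 515 to 786 CPM in MII and 190 to 222 CPM in 2-cell transcriptomes. Later it was 167 to 230 CPM in morula and 418 to 1055 CPM in blastocyst transcriptomes. SERPINE2, which is also on the list of the plasminogen system, made up much of the 8-cell and morula sums. It was at 933, 137 and 147 CPM in 8-cell transcriptomes A, B and C, and at a mean of 148 CPM in morula transcriptomes. Some listed genes were lower than at the 2-cell stage, such as HAS2 (mean of 24.5 against 103.9 CPM) and PTGS2 (4.01 against 23.5 CPM). CYP11A1, the enzyme that starts steroid synthesis, was at 146, 51.1 and 61.3 CPM and HSD3B1, a later enzyme of that pathway, at 91.2, 26.9 and 27.6 CPM, after at most 0.160 and 0.639 CPM in 2-cell transcriptomes. Both polysome pools held CYP11A1, at 33.3 and 41.9 CPM, and INHA, the inhibin alpha subunit, at 36.1 and 55.8 CPM. HSD3B1 was at only 0.574 and 0.0271 CPM in these pools. Of these 13 genes, 10 were highest in transcriptome A (median ratio 3.13), beside 42.5% of all genes. The granulosa cell factor FOXL2 and the receptor AMHR2 stayed at means of 0.288 and 0.405 CPM, and LHCGR and TNFAIP6 were lower in A than in B and C. The MII transcriptomes, in which SPARC, VIM and PLAT were raised over GV, held TNFAIP6 at 82.0, 147 and 144 CPM, LUM at 28.0, 37.7 and 68.7 CPM and CYP11A1 at 12.9, 21.9 and 13.2 CPM.

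Smooth muscle and pericyte markers were mostly absent. CNN1, calponin, was at 38.8, 9.41 and 6 CPM in the 8-cell transcriptomes, but it was at 13.2 to 16.4 CPM in 2-cell embryos. DES, RGS5, LMOD1, MCAM, NOTCH3 and CSPG4 were below a mean of 0.50 CPM, so that 2 of 8 markers reached 1 CPM. Leukocyte markers were below a mean of 1 CPM apart from CD68 at 1.75 CPM, and the protamines PRM1 and PRM2 of spermatozoa were at 0 in all 3 transcriptomes. Of 9 endothelial markers, 5 reached 1 CPM in 8-cell transcriptomes. PECAM1 and CDH5 were at means of 0.0299 and 0.117 CPM. CLDN5 was at 32, 1.52 and 0.435 CPM in A, B and C and 137 and 98.1 CPM in the polysome pools. TEK, KDR, VWF and EMCN were at means of 7.90, 5.375, 4.39 and 2.95 CPM. In 2-cell transcriptomes these means were 63.7, 42.5, 42.3 and 0 CPM. VWF was at a mean of 66.75 CPM in 8-cell polysomes, with 119.5 CPM in pool A. HBA, STAR and INSL3, on the red blood cell and theca lists, were at means of 78.4, 45.9 and 11.4 CPM. Their 2-cell means were 6.45, 254.7 and 0.230 CPM. HBA was at 283.7 and 407.9 CPM in the polysome pools. Of the markers detected in 8-cell transcriptomes, A was the highest for 2 of 2 of smooth muscle and pericytes (median ratio 3.18), 2 of 5 of endothelium, 1 of 2 of theca cells, 1 of 3 of oviduct epithelium, 1 of 2 of spermatozoa, 0 of 1 of red blood cells and 1 of 6 of trophectoderm and inner cell mass. Among all genes A was the highest for 42.5%, so these small counts are read no further.

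Genes known to be switched on with the embryonic genome had the opposite order of replicates. Of the 7 activation genes listed, 3 were analysed here. KLF17, NANOG and ZSCAN4, transcription factors switched on in early embryos, were at 203, 126 and 23.9 CPM in transcriptome A, below both B and C in each case, and their summed level was 353 to 639 CPM after at most 1.81 CPM in 2-cell transcriptomes. Of 10 oocyte markers detected, 1 was highest in A, beside 42.5% of all genes. The hypoblast list, which shares matrix genes with fibroblasts, was mixed, with 5 of 7 highest in A, among them COL4A1, LAMB1 and LAMC1. PDGFRA, on both lists, was at 182, 98.6 and 128 CPM and stayed at 84.8 to 95.0 CPM in morulae.

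**Figure D3:**
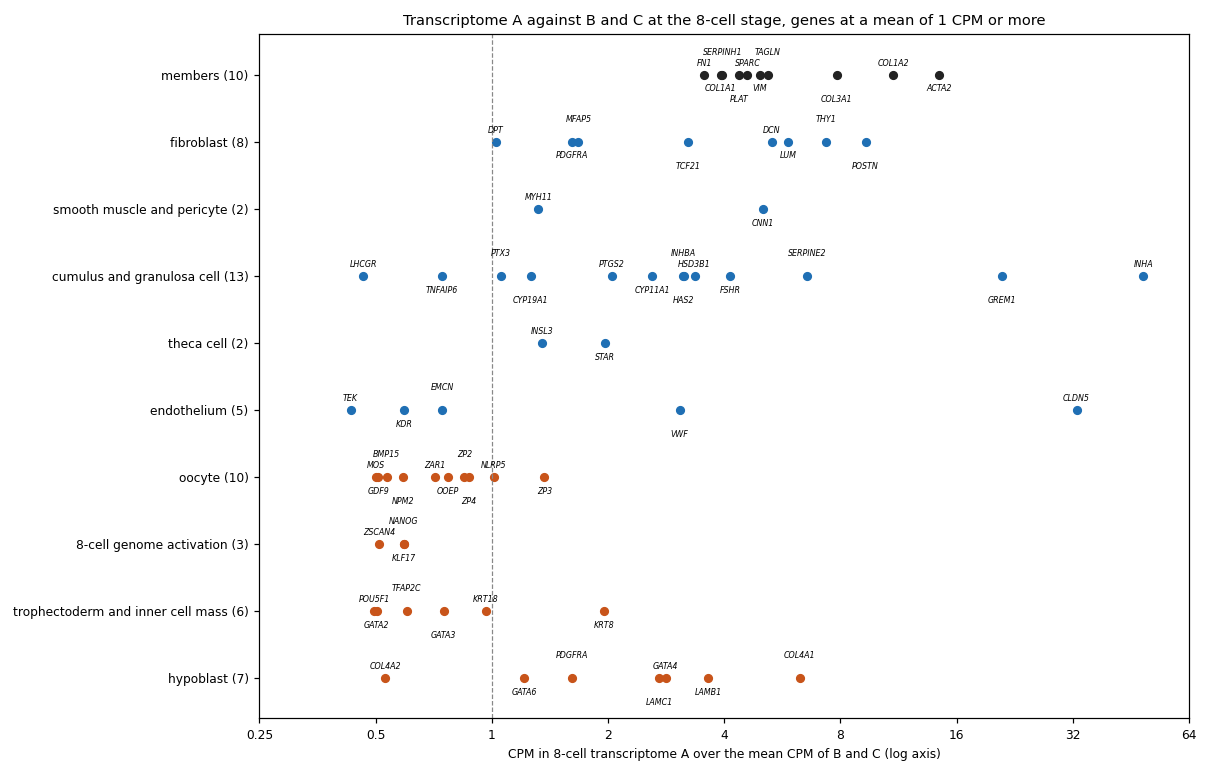
Level in 8-cell transcriptome A divided by the mean level of B and C (log axis, 1 point per gene at a mean of 1 CPM or more), for the members in black, markers of somatic cells in blue and markers of oocytes and embryonic lineages in orange. All 10 members, chosen on their levels in these libraries, lie at ratios of 3.55 to 14.5. The fibroblast and cumulus or granulosa lists have medians of 4.27 and 3.13, and the 3 activation genes lie below 1.

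Genes that build, modify or bind the same matrix were counted from 9 lists, which hold none of the members. The lists were chosen with earlier results of these data known. Their counts and p-values are therefore not independent of that choice. From the 2-cell to the 8-cell stage, 98 of 182 listed genes tested rose in transcriptomes and 12 fell, beside 26.6% and 23.5% of all genes. In polysomes 54 rose and 38 fell, beside 21.0% and 25.2%. From the 8-cell stage to the morula, 7 rose and 47 fell in transcriptomes, beside 6.6% and 7.75% of all genes, and 32 rose and 37 fell in polysomes, beside 18.5% and 17.7%. Of the 98 listed genes that rose in transcriptomes, 86 were highest in replicate A, with a median ratio of 2.98, and for 69 of the 98 the ratio was 2 or more. Among all genes at a mean of at least 1 CPM, 42.5% were highest in A and 16.4% had a ratio of 2 or more. The 98 genes were called in a fit that includes A, which favours genes high in A. The shares over all genes carry no such condition, so the 2 sets are not alike. Without replicate A, 91 listed genes in place of 110 passed the test from the 2-cell to the 8-cell stage, and 33 in place of 54 from the 8-cell stage to the morula.

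COL5A1, FMOD, FLNA and SNAI2 were at 0 in all 2-cell transcriptomes, FLNA and LOXL2 in both 2-cell polysome pools, and NID1, PDGFRB and TGFBR2 in both 8-cell polysome pools, so that their fitted log2 changes depend on the prior count and are no bounds. Other collagen chains had 11 of 23 genes higher and 1 lower in 8-cell than in 2-cell transcriptomes, but 4 higher and 5 lower in polysomes. COL5A1, which joins collagen I fibrils, rose in both, by 10.98 (SE 2.27) and 9.39 (SE 2.31) on the log2 scale. Enzymes and chaperones of collagen had 19 of 29 higher and 1 lower in transcriptomes and 10 higher and 4 lower in polysomes. PLOD2, the lysyl hydroxylase of collagen telopeptides, rose by 10.28 in transcriptomes (SE 1.63, edgeR adjusted p = 1.43e-05) and LOXL2, a cross-linking lysyl oxidase, rose by 10.81 in polysomes (SE 2.34, adjusted p = 7.94e-04). Of matrix glycoproteins and proteoglycans, 15 of 33 rose and 1 fell in transcriptomes, led by POSTN (log2 change of 12.83, SE 1.71), FMOD and LUM (log2 change of 12.15, SE 2.03). In polysomes 8 rose and 7 fell, with NID1, a basement membrane linker, falling by 10.16 on the log2 scale (SE 1.58).

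Contractile and actin-binding genes rose in 14 of 22 cases in transcriptomes and 9 in polysomes, with 3 lower in each. FLNA, the actin cross-linker filamin A, rose in both (log2 changes of 11.88 and 11.26). Mesenchymal regulators and surface proteins rose in 8 of 13 cases in transcriptomes, with 0 lower, and in 4 in polysomes with 1 lower. The transcription factor SNAI2 rose in transcriptomes (log2 change of 12.29, SE 2.60, edgeR adjusted p = 6.49e-04) and SNAI1 in polysomes (log2 change of 4.04, SE 0.54, adjusted p = 2.80e-06), whereas PDGFRB fell in polysomes (log2 change of -10.31, SE 2.40, adjusted p = 0.00147). The plasminogen system and matrix proteases rose in 12 of 16 cases with 1 lower in transcriptomes, and in 7 with 1 lower in polysomes, among them PLAU, the urokinase that acts beside PLAT (log2 change of 6.71 in polysomes, SE 1.77). Matrix receptors had 6 of 17 higher and 1 lower in transcriptomes and 4 higher and 4 lower in polysomes. For signalling by TGF-beta, SRF and YAP, 8 of 19 genes rose and 3 fell in transcriptomes, while 4 rose and 10 fell in polysomes. CCN1 and CCN2, matricellular targets of YAP, rose in both kinds of library, and the receptors TGFBR1 and TGFBR2 fell in polysomes. Other intermediate filaments had 5 of 10 higher and 1 lower in transcriptomes and 4 higher and 3 lower in polysomes, including KRT18, an epithelial keratin (log2 change of 5.38 in transcriptomes, SE 0.82).

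**Figure D4:**
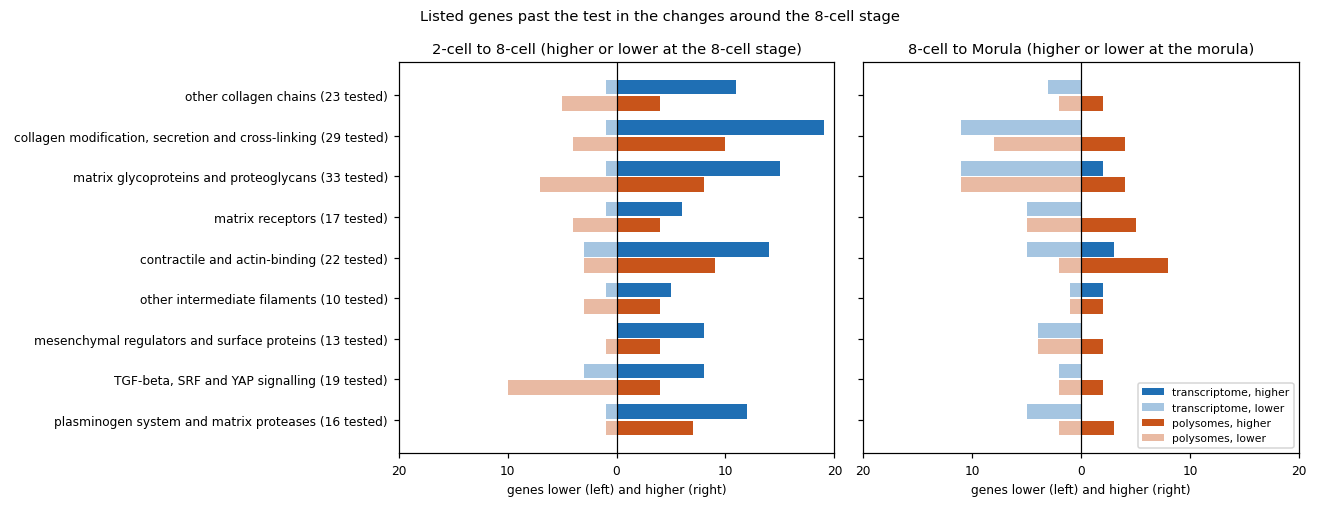
Number of listed genes past the test (adjusted p under 0.05 and fold above 2) from the 2-cell to the 8-cell stage and from the 8-cell stage to the morula, in transcriptomes (blue) and polysomes (orange), with genes higher at the later stage to the right and lower ones, in pale shades, to the left. In transcriptomes the lists are mostly higher at the 8-cell stage (98 against 12) and lower in morulae (47 against 7), and polysomes are more even (54 against 38, and 37 against 32).

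The genes whose profile was most like that of the 3 collagen chains over the 30 libraries of polysome pools and transcriptomes, out of 12818 genes at a mean of at least 1 CPM, were COL5A1, ORM1, IGFBP7, XCL1, CTHRC1, NDNF, MAGED2, TPM2, ADPRHL1 and LTC4S, with Pearson's r of log2 levels between 0.883 and 0.917. The highest value of each collagen chain was in an 8-cell library, so this likeness gives weight to genes that share that stage. These genes differed in how they compared between 8-cell replicates. IGFBP7, a secreted protein of stromal cells, was at 677, 144 and 153 CPM and TPM2, beta-tropomyosin, at 479, 118 and 110 CPM, with A highest. The chemokine gene XCL1 was at 2099, 2150 and 2469 CPM and LTC4S at 127, 240 and 71.3 CPM, with A not the highest, although neither exceeded 2.26 CPM in a transcriptome of another stage. Among the members, TAGLN had the highest r with the mean profile of the collagen chains (0.923), which it does not enter, and FN1 the lowest (0.0567). Between members, the median of 45 pairwise r over the 23 8-cell libraries was 0.382, and over the 20 fraction libraries 0.220, which in sparse counts is read no further.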

How the data were processed

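The authors amplified RNA with Smart-seq chemistry, assigned reads with Salmon and deposited 1 table of expected counts, not normalized, for 138 libraries, all mapped to samples by column name. Versions of Salmon were not given in the sources used here. The study's methods name the bovine assembly ARS-UCD1.2, the submitters' processing notes UMD3.1, so no coordinates are printed. Of the values, 11.7% were not whole, and counts were rounded for testing.

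Fractions were summed per gradient. One model held 18 transcriptomes and 12 polysome pools (14612 genes after filterByExpr), a second 24 pools of free RNA and monosomes (14504 genes, 6482360 to 42183070 counts per pool). Both were fitted with the quasi-likelihood test of edgeR 4.0.16 in R 4.3.3, with TMM factors (0.736 to 1.46 over both models). All tests were two-sided, with Benjamini-Hochberg adjustment across the genes fitted. A call needed an adjusted p under 0.05 and, between stages, a fold above 2. SE is the log2 change divided by the square root of F. The scripts were tested on simulated data. Alternatives were the likelihood ratio test, DESeq2 1.42.0, RLE factors, library totals, no filter, other fraction limits, pseudocounts, a replicate block and leaving out each library. The floors cover counting error only, since amplified reads carry no molecular identifiers, whereas the SE includes the fitted spread between libraries.

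The members, gene lists and markers were chosen with earlier results of these data known. Besides the members, genes were named if among the 3 largest called changes per direction of a list, the 10 most like the collagen chains, or markers. COL7A1, COL9A2, PDLIM7, TIMP1, DUXA, LEUTX, ARGFX, TPRX1 and SOX2 were not analysed here.

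The figures were drawn with matplotlib 3.10.9 under Python 3.11.15.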

Additional observations from a re-analysis of the deposited data

Results flagged for a closer look

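The change of PLAT from morula to blastocyst differed between polysomes and transcriptomes, which was tested as an interaction in the same edgeR model. The polysome change minus the transcriptome change was -14.42 on the log2 scale (adjusted p = 0.0129, beside 12.3% of all genes with an adjusted p under 0.05). PLAT was at 0 in all 3 morula transcriptomes and in polysome pool A, and at 16.3 CPM in pool B, so that the size of the difference depends on the prior count of the fit and on that pool. The other 9 members did not pass this test in any of the 3 transitions. Groups of 2 or 3 libraries were too small for the test for single outlying samples.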

How the results depend on the processing

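Of the 30 calls for members, 10 were kept in every fit that left out 1 library: SPARC and VIM from GV to MII and VIM from MII to the 2-cell stage in transcriptomes, ACTA2 from morula to blastocyst in polysomes, SERPINH1 in polysomes against transcriptomes in GV, MII, morula and blastocyst samples, and SPARC against the 2-cell stage and FN1 against the morula in free RNA. These fits use fewer samples, and a lone pool left in a group is assumed to vary like the other groups. Without morula pool B the signs turned, with log2 values of 5.63 (VIM) and 2.02 (PLAT) to the blastocyst and -7.84 (VIM) and 0 (PLAT) against the transcriptome; pool A was at 0 for both. Without pool A the differences from the transcriptome were 4.11 and 11.19, and without a blastocyst pool the changes to the blastocyst were as low as -6.67 (VIM) and -10.20 (PLAT).

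By transition, transcriptomes then polysomes, the number of members called ran over these fits from 2 to 3 and 0 to 1 (GV to MII), 1 to 2 and 0 to 2 (MII to 2-cell), and 0 to 1 and 1 to 5 (morula to blastocyst). Between polysomes and transcriptomes it ran from 1 to 2 (GV, MII and blastocyst), 0 to 3 (2-cell) and 3 to 5 (morula). For members higher at the 8-cell stage it was 0 to 1 in monosomes against the 2-cell stage, 0 in monosomes and 0 to 1 in free RNA against the morula, and 1 in free RNA against the 2-cell stage. Pathway genes changed ran from 91 to 108 and 74 to 96 (2-cell to 8-cell), and 33 to 51 and 52 to 78 (8-cell to morula).

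From morula to blastocyst in transcriptomes, 3 members were called with the likelihood ratio test, 4 with DESeq2, 2 with RLE factors and 2 without the filter, against 1. With the likelihood ratio test 4 passed between blastocyst polysomes and transcriptomes, against 2. From GV to MII, DESeq2 called 2 in polysomes and library totals alone 2 in transcriptomes, against 1 and 4, and DESeq2 called 2 in MII polysomes against transcriptomes, against 1. For 8-cell monosomes above 2-cell ones, 2 members were called with the likelihood ratio test and 3 with DESeq2, against 1. In free RNA above the morula both called 2, against 0, and between free RNA and monosomes both called 1, against 0. With polysomes as F9 and F10, 0 members in place of 1 were called from GV to MII and 1 in place of 2 from MII to the 2-cell stage, as SPARC (adjusted p = 0.0982) and SERPINH1 (adjusted p = 0.0966) were lost. Library totals alone lost SERPINH1 (adjusted p = 0.0598) and PLAT (adjusted p = 0.0786) from GV to MII. The causes were not tested.

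The letters are not stated to pair samples between transcriptomes and gradients or between stages. Differences of A minus B, without C, were correlated between groups of polysome pools and transcriptomes. They correlated above 0.1 in 4 of 60 pairs of groups of different stages and 0 of 6 pairs of the same stage. Free RNA and monosomes of 1 gradient share a lysate and are paired by design (3 of 6 correlations above 0.1, median 0.094). Since the check missed part of this known pairing, it cannot exclude pairing elsewhere. With the gradient as a replicate block, 0 members again differed between them. With a replicate block, 2 members in place of 1 passed between MII polysomes and transcriptomes, and 1 in place of 2 in 2-cell embryos, where SERPINH1 had an adjusted p of 0.0582. PLAT from GV to MII (adjusted p = 0.0512) and VIM in morula polysomes against transcriptomes (adjusted p = 0.0526) were also lost. The median member difference from 2-cell to 8-cell embryos was 7.36 in transcriptomes and 5.93 in polysomes with 0.1 CPM added in place of 1.

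Depth and replicate number limit the low genes: with 2 gradients a stage, the 8-cell polysome values of COL3A1, COL1A2 and FN1 rest on 1 or 2 fractions of a gradient.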
